A study of Homo sapiens with 20 samples.

Results

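The guides described here are those at row 7 to 11 and column 7 to 11 of the number grids of the A375 guide library, called the late block below. Guides of that library carry consecutive numbers, and the first 4719 of them form 39 grids of 11 rows by 11 columns when the numbers are read row by row. The row and the column are therefore positions in the numbering, and the rule used no measured value. This layout is inferred from the numbers, and the sources used here do not document it. The block has 25 places per grid, which gives 975 of the 6211 guides of the A375 table and of the 81577 table rows with a guide ID in the whole series. They are compared with the 2340 guides late on one axis only and with the 1404 guides at row 1 to 6 and column 1 to 6.

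RfxCas13d is an RNA-guided RNA nuclease from the type VI CRISPR family, here nuclear-localized and switched on with doxycycline. Its guide RNA carries a spacer that pairs with a target RNA, and the activated enzyme cuts that RNA and can also cut other RNA nearby. A guide that slows the growth of its host cell becomes rarer in the population over time, so the amount of the guide cassette in genomic DNA reports on growth. A guide that is already rare in the sequenced sample can only be followed down to the lowest value the library holds.

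The study engineered A375, a human melanoma line, to express RfxCas13d, infected the cells with a guide library that the labels call a dual titration, and sequenced the guide cassettes. There were 3 libraries at day 14 after induction and 3 at day 0, described as separate infection replicates. Cells of both days carried the RfxCas13d transgene and had been selected with puromycin. All 6 libraries are labelled as doxycycline induced, and those of day 14 were harvested after 14 days in doxycycline, puromycin and blasticidin. The labels do not say what was titrated along the axes, whether the line is a single clone, or which gene a guide targets, and the files pair no guide number with a sequence. HAP1 and HEK293FT cells were screened with other libraries, which are not used here.

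Values are the authors' normalised signal, and each value less 1 is a whole multiple of a step that is fixed for its library. Summed steps per library ran from 494672 to 873999 at day 14 and from 868384 to 1684142 at day 0. Steps would be reads if 1 step stood for 1 read, which the sources used here do not say.

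The late block was lost far more deeply than the table as a whole. In the 3 day 14 libraries its median signal was 5.92, 5.60 and 7.46, against 189, 187 and 212 in the 3 day 0 libraries. Every day 14 median lay far below every day 0 median, and the day 14 medians correspond to only 5, 6 and 5 steps. The block held 3.44%, 3.56% and 3.68% of all steps at day 14, against 16.6%, 16.2% and 16.7% at day 0. The median log2 fold change, day 14 less day 0, was -5.0 for the 975 guides and -1.15 for all 6211 guides. It was -2.27 for the guides late on one axis and -0.53 for those early on both. From the 5th to the 95th percentile the block ran from -6.56 to -0.74.

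In a limma fit across the whole table, 908 of the 975 guides fell at an adjusted p under 0.05 and 0 rose, with 0 guides above 0 at an unadjusted p under 0.05. With limma voom on the steps 0 rose as well. Over all guides 51.2% fell and 1.63% rose, that is 3181 and 101 guides. That split depends on the scaling. After scaling by a trimmed mean 2149 fell and 2412 rose over all guides, which left 794 falling and 42 rising in the block. After scaling on the 1372 guides numbered last, 3166 fell and 118 rose over all guides. The share that fell was 93.1% in the late block, 67.8% among guides late on one axis and 37.8% among those early on both. In 917 of the 975 guides every day 14 library lay below every day 0 library, and 2 guides had every day 14 library above every day 0 library. Every day 14 library lay below every day 0 library for 3425 of all 6211 guides, for 1675 of the 2340 late on one axis and for 607 of the 1404 early on both. The upward count was made in the block only, so no share over all guides stands beside it. The fold change was below -5 for 486 guides (49.8%), against 13.0% of the guides late on one axis and 1.92% of those early on both. The median standard error of a guide's log2 fold change was 0.51.

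All 25 places of the block fell when each place was averaged over the 39 grids, against 93.4% of all places. At day 0 the 25 places were alike, with mean signals between 176 and 202. The first place of the block, row 7 column 7, averaged a signal of 18.7, 18.1 and 20.5 at day 14, against 183, 168 and 200 at day 0. On the log2 scale that is -3.27 ± 0.12 (SE, 3 libraries a day). The SE of a place comes from the variance that places share, not from the spread of its own libraries. The last place, row 11 column 11, averaged 4.29, 4.82 and 5.08 at day 14, against 189, 188 and 207 at day 0, which is -5.37 ± 0.12 on the log2 scale (SE). No library broke the separation at either place.

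The other 2 corners of the block were nearly alike. Row 11 column 7 was at -4.47 ± 0.12 and row 7 column 11 at -4.45 ± 0.12 (SE), so a move along the rows and a move along the columns ended at the same depth within the error. Row 11 column 10, at -5.37 ± 0.12, did not differ from the last corner beyond its error. Of the 20 steps between neighbouring rows within the block all 20 went down, and of the 20 steps between neighbouring columns 18 did. The median guide among grids lay lower than the mean at the last corner, at -5.75, with a range from -7.09 to -1.20.

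The border of the block is not a step in the data. Over columns 7 to 11, row 7 was at -3.87 ± 0.05 and row 6, just outside, at -3.62 ± 0.13 (SD over the 3 day 14 libraries). Over rows 7 to 11, column 7 was at -3.90 ± 0.17 and column 6 at -3.55 ± 0.04 (SD).

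Within each grid the block lay below the places late on one axis. The block's mean log2 fold change less that of the 60 places late on one axis was negative past the threshold in 39 of 39 grids (100%), with a median of -2.10 and a range from -3.24 in grid 28 to -0.56 in grid 38. The largest adjusted p, from limma over the grids, was 1.49e-05. The block mean itself fell in all 39 grids (100%), and in 37 of 39 after scaling by a trimmed mean or by total signal. In grid 28 the block was at -4.92 while its one-axis places were at -1.68.

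Grids differed more than places did. Of the variation in log2 fold change among the 975 guides, 67.6% lay between grids, 9.80% followed the place that all grids share, and 22.6% was left within grids. Inside a grid, 37.6% of the variation lay between rows, 40.2% between columns and 22.2% was neither. These within-grid shares include the place pattern that all grids share. Some variation would fall between rows and between columns even without row or column effects, so the shares are a description. Block means ran from -6.01 in grid 21 to -0.58 in grid 38, with a median of -5.14. They were below -5 in 22 grids, between -5 and -3 in 9, and above -3 in 8. In 28 of 39 grids all 25 guides fell.

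Grid 21 had the deepest block. Its mean signal was 2.69, 2.97 and 3.77 in the 3 day 14 libraries, against 194, 189 and 218 in the 3 day 0 libraries. Its first corner, uid_2493 at row 7 column 7, was at 5.92, 27.1 and 30.7 at day 14, against 161, 130 and 224 at day 0, and its log2 fold change of -3.30 ± 0.67 (SE, limma adjusted p = 0.00103) was the least of the 25. Its last corner, uid_2541, was at 2.97, 1.77 and 2.29 at day 14, against 200, 239 and 358 at day 0, with a log2 fold change of -6.81 ± 0.45 (SE, adjusted p = 1.48e-07). The groups did not overlap at either corner, although replicate 1 at the first corner lay well below the other 2 day 14 libraries. Its other corners, uid_2497 and uid_2537, were at -5.77 ± 0.48 and -5.52 ± 0.67, and the centre, uid_2517, at -6.31 ± 0.44.

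Grid 13 had the median block, at -5.14. Its centre, uid_1549, was at 4.94, 12.5 and 7.46 at day 14, against 119, 148 and 163 at day 0, a log2 fold change of -4.20 ± 0.52 (SE, limma adjusted p = 2.36e-05). Its row 11 column 7 guide, uid_1569, was at 1.98, 38.6 and 17.8 at day 14, against 151, 175 and 195 at day 0, which gave -3.96 ± 0.89 (SE, adjusted p = 0.0021). The day 14 libraries of that guide spread from the lowest level to a signal of 38.6, the first of them being the lowest, while day 0 was tight. The remaining corners, uid_1525, uid_1529 and uid_1573, were at -4.83 ± 0.56, -5.61 ± 0.45 and -6.48 ± 0.43.

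Grid 38 had the mildest block, with a mean signal of 152, 139 and 130 at day 14, against 196, 203 and 231 at day 0, a log2 fold change of -0.58 ± 0.10 (SE, limma adjusted p = 3.6e-08). Scaling by total signal, which raises every log2 fold change by 0.77, turns its direction. Only 6 of its 25 guides fell, and they included 2 of its 4 corners. The row 11 column 7 guide, uid_4594, was at 37.4, 59.3 and 76.0 at day 14, against 206, 166 and 328 at day 0, at -2.02 ± 0.42 (SE, adjusted p = 0.00124). The last corner, uid_4598, was at 89.6, 80.0 and 56.6 at day 14, against 147, 198 and 168 at day 0, and its fall of -1.20 ± 0.37 (SE, adjusted p = 0.0146) did not pass the threshold without day 0 replicate 2 (-1.09, adjusted p = 0.0839) or with total signal scaling (-0.43, adjusted p = 0.314). The other named places of this grid did not pass, with 0.16 ± 0.47 for uid_4550 at row 7 column 7, -0.27 ± 0.36 for uid_4554 at row 7 column 11 and 0.09 ± 0.41 for uid_4574 at the centre.

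Grids 38 and 18 carried most of their loss in the last 2 rows of the block. In grid 38 the means over columns 7 to 11 were -0.18, -0.08, -0.25, -0.78 and -1.63 along rows 7 to 11. In grid 18 they were -0.41, -0.13, -0.40, -1.19 and -2.37. In both grids rows 1 to 6 lay between -0.33 and 0.30 over the same columns. These grids held 36 of the 67 guides of the block that did not fall. Grids 2, 11, 22 and 31 held another 22, grids 17 and 37 held 6, and 3 lay elsewhere.

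The deepest falls were bounded by the lowest value in each library. The lowest level was 1.98, 1.77 and 2.29 in the 3 day 14 libraries and equals 1 step above 1 in each. In the day 14 libraries 272, 269 and 259 of the 975 guides stood at that level, that is 27.9% (25.1 to 30.8), 27.6% (24.8 to 30.5) and 26.6% (23.8 to 29.5), with exact Clopper-Pearson 95% intervals that cover counting error only. At day 0 no guide of the block stood there in any library, and the lowest signal was 52.8, 28.1 and 24.2. Among guides late on one axis the day 14 shares were 6.88%, 6.67% and 6.67%, and among those early on both 0.855%, 0.712% and 1.14%. The sources used here do not say if a guide at that level had been read once or had no read and an added 1, so the size of these falls is uncertain.

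Of the 975 guides, 466 (47.8%) were at the lowest level in at least 1 day 14 library and 82 in all 3, while 214 were there in exactly 1 library and 170 in exactly 2. Guides with up to 5 steps made up 51.0%, 47.1% and 54.3% of the block at day 14. The guides at the lowest level in at least 1 library were 391 of the 550 in grids with a block mean below -5, 71 of 225 in grids between -5 and -3, and 4 of 200 in grids above -3. The library with the fewest summed steps, day 14 replicate 3, did not have the most guides at its lowest level. It did have the largest share of guides with up to 5 steps, at 54.3%. Whether these counts follow the summed steps was not tested.

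The guides with the lowest fold changes show that limit. The guide uid_2902, at row 11 column 9 of grid 24, was at the lowest level in all 3 day 14 libraries, with a signal of 1.98, 1.77 and 2.29, against 302, 261 and 303 at day 0. Its log2 fold change of -7.17 ± 0.41 (SE, limma adjusted p = 7.28e-08) is exactly the distance from its day 0 mean to that level. The guides uid_3000, uid_0096 and uid_3022 were in the same state at -7.13, -7.11 and -7.10. The lowest of all, uid_0836 at row 10 column 11 of grid 7, was at 1.98, 2.53 and 2.29 at day 14, against 206, 355 and 478 at day 0, and its -7.18 ± 0.48 (SE, adjusted p = 1.58e-07) rested on its high day 0 signal. The 4 guides at the lowest level throughout differ from each other only in their abundance at day 0.

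The distance that was left above the lowest level can be given for each guide. For the median guide of the block the largest fall that could be measured was -6.59, and the median guide stood 1.53 log2 units above its lowest level. Guides within 1 log2 unit of it numbered 340 of 975, against 178 of 2340 late on one axis and 14 of 1404 early on both. The median distance was 1.01 at row 11 column 11 and 3.09 at row 7 column 7. In grid 20 all 25 guides stood at the lowest level in at least 1 library, and its median distance was 0.22. That grid also had the lowest day 0 signal of all blocks, at 91.2, against 147 to 247 in the others, so its mean of -5.26 had the least room.

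Flattening along the block was then measured as the change over the last 4 steps less that over the first 4 steps. Over all grids the fall along rows 7 to 11 was -1.11 ± 0.11, against -2.17 ± 0.11 along rows 1 to 5 of the same columns. Along columns 7 to 11 it was -1.07 ± 0.08, against -2.84 ± 0.12 along columns 1 to 5 (SD over the 3 day 14 libraries). Both axes were flatter late than early. Tested per grid with limma, 21 of 39 grids were flatter over the late rows (53.8%) and 7 were steeper (17.9%). Over the late columns 25 were flatter (64.1%) and 3 were steeper (7.69%).

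The flattening went with depth. Of the 22 grids with a block mean below -5, 18 were flatter over the late rows and 20 over the late columns, while 1 was steeper over the rows and 0 over the columns. In the 6 grids with no guide of the block at the lowest level, grids 11, 17, 18, 31, 37 and 38, the rows were divided. Grids 17 and 37 were flatter over the late rows, by 2.48 ± 0.53 and 2.28 ± 0.76 (SE, limma adjusted p = 0.00367 and 0.0257), grids 18 and 38 were steeper, and grids 11 and 31 passed in neither direction. No grid of the 6 was flatter over the late columns, and grid 11 was steeper. On average over the 6 grids the fall was -0.78 ± 0.24 along the late rows, against -0.97 ± 0.35 along the early rows. Along the late columns it was -1.17 ± 0.20, against -0.47 ± 0.33 along the early columns (SD over libraries). These 6 grids were picked by a measured value, and the part of the lowest level in the flattening elsewhere was not tested.

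The 7 grids steeper over the late rows were 8, 12, 18, 27, 30, 32 and 38, and the 3 steeper over the late columns were 2, 11 and 22. Grids 12 and 32 had the largest such values, at -2.59 ± 0.32 and -2.86 ± 0.34 (SE). In grid 12 the means along rows 7 to 11 were -2.67, -2.92, -3.72, -5.76 and -5.71. In grid 32 they were -2.83, -3.89, -3.83, -5.46 and -5.67. Both grids dropped most between row 9 and row 10. Over the 19 pairs of grids 20 apart, the row value of one grid correlated with that of its partner at r = 0.83 and the column value at r = 0.82, as a description across grids that share all 6 libraries. The row and column values also correlated with the block mean over the 39 grids, at r = -0.53 and -0.78. Whether partners share more than depth in these values was not tested.

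Grids 20 apart in the numbering, a pairing that the sources used here do not document, had similar blocks. Their block means correlated at r = 0.94 over 19 pairs, with a median absolute difference of 0.38 and a largest of 1.01, between grids 8 and 28. Over the 25 places the raw correlation averaged 0.50 and ran from -0.04 to 0.86, against an average of 0.26 for the 722 other pairs of grids. With rows and columns exchanged in the later grid it averaged 0.25. After each grid's and each place's mean was removed it averaged 0.36 in the 19 pairs and -0.03 in the others. The partner was the best match in 7 of 19 pairs, and it was among the best 5 in 13.

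That agreement was lower than over whole grids, where the raw correlation averaged 0.87. It was also uneven. In the 7 pairs with both block means above -5, the correlation after removal of means averaged 0.61 and ran from 0.33 to 0.76. In the other 12 pairs it averaged 0.20 and ran from -0.36 to 0.55. When the 2 grids were measured in separate pairs of libraries it averaged between 0.15 and 0.24 over the 19 pairs. Each fold change was then 1 day 14 library less 1 day 0 library, so these averages are not comparable with those from all 6 libraries. For the same grid measured in such separate pairs of libraries it averaged 0.26 to 0.27 over all 39 grids.

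Grids 12 and 32 had the highest raw correlation. Their centre guides were uid_1428, with a signal of 1.98, 8.67 and 6.17 at day 14 against 98.7, 140 and 105 at day 0, and uid_3848, with 4.94, 10.2 and 7.46 at day 14 against 138, 80.9 and 224 at day 0. Their log2 fold changes were -4.58 ± 0.55 and -4.23 ± 0.54 (SE), within their errors of each other. Grids 7 and 27 had the lowest, and their centre guides uid_0823 and uid_3243 were at -5.55 ± 0.50 and -3.67 ± 0.66. When the 2 guides at a place of partner grids were compared with limma over all 2299 such places, 0 differed (0%), with 0 of 475 in the block. At an unadjusted p under 0.05 there were 75 of those 475 and 319 of all 2299. These shares are similar, and both exceed the share of 0.05 that would be met with no differences. The median absolute difference in the block was 0.68, so this test left room for sizeable differences at single places.

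Rows and columns that lay off the mean of their neighbours recurred in partner grids. A row or column, over places 7 to 11 of the other axis, was set against the mean of its 2 neighbours and tested with limma over all 702 inner rows and columns. The measure is a bend, so a row that falls in order with its neighbours can also be called. Row 10 of grid 32 was called below at -5.46, between row 9 at -3.83 and row 11 at -5.67. Of the 312 at position 7 to 10, which lie in the late block, 31 lay above their neighbours and 44 below. Over all 702, 15.0% lay above and 20.7% below, and the shares in the block were lower in both directions. The count below was 22, 20 and 23 without day 0 replicates 1, 2 and 3. Of the 152 such rows and columns in grids 1 to 19, 18 lay above, and 8 of those 18 also lay above in the partner grid, where 13 did. For those below the numbers were 19, 13 and 25. In 0 cases were partners called in opposite directions, and the values correlated at r = 0.61 over the 152 pairs as a description.

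Rows 8 and 9 of grids 10 and 30 broke the downward order, with a milder row after a deeper one. Row 9, over columns 7 to 11, exceeded its neighbours by 1.55 ± 0.24 in grid 10 (SE, limma adjusted p = 0.00124) and by 2.37 ± 0.22 in grid 30 (SE, adjusted p = 0.000175). Row 8 lay below its neighbours by -1.07 ± 0.21 in grid 10 (adjusted p = 0.00387) and by -2.70 ± 0.26 in grid 30 (adjusted p = 0.0002). In grid 10 the means along rows 7 to 11 were -2.73, -3.73, -2.61, -4.57 and -3.23, and in grid 30 they were -2.08, -4.80, -2.11, -4.17 and -3.25. Both grids thus alternated between deeper and milder rows.

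Columns 7 and 8 of grids 11 and 31 made a break of another kind, with almost no loss in column 8. In grid 11 the mean signal of column 8, over rows 7 to 11, was 175, 127 and 150 at day 14, against 173, 156 and 199 at day 0. In grid 31 it was 134, 129 and 125 at day 14, against 146, 156 and 165 at day 0. The column means were -0.23 in grid 11 and -0.26 in grid 31, between columns 7 and 9 at -1.38 and -1.93 in grid 11 and at -2.25 and -2.35 in grid 31. Column 8 thus exceeded its neighbours by 1.42 ± 0.24 in grid 11 (SE, limma adjusted p = 0.00175) and by 2.03 ± 0.21 in grid 31 (SE, adjusted p = 0.0002). Column 6 was at -0.21 and -0.17 in these grids. Columns 1 to 6 lay between -0.49 and 0.55 in grid 11 and between -0.50 and 0.37 in grid 31. Column 7 in turn lay below its neighbours, by -1.16 ± 0.26 in grid 11 (SE, limma adjusted p = 0.00736). In grid 31 it did so by -2.03 ± 0.35 (SE, adjusted p = 0.00207). The 2 columns are neighbours of each other, so these values do not say which of them is the exception. Of the 10 guides of column 8 only uid_3748, at row 11 of grid 31, fell, with -1.22 ± 0.42 (SE, adjusted p = 0.0271).

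Column 7 of grids 2 and 22 was another. Its mean signal was 127, 115 and 146 at day 14, against 185, 171 and 194 at day 0, in grid 2, and 100, 101 and 77.6 at day 14, against 92.3, 103 and 99.2 at day 0, in grid 22. Its means were -0.51 and -0.08, between columns 6 and 8 at -1.84 and -1.85 in grid 2 and at -3.22 and -2.10 in grid 22. It exceeded its neighbours by 1.33 ± 0.22 (SE, limma adjusted p = 0.00189) and by 2.58 ± 0.24 (SE, adjusted p = 0.00018). These differences between neighbouring rows or columns do not move with the scaling. The rows and columns described were picked for the text after their values were seen.

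The guides with the highest fold changes came mostly from such columns. The highest, uid_2647 at row 10 column 7 of grid 22, was at 49.2, 159 and 128 at day 14, against 67.0, 69.3 and 24.2 at day 0, and the 2 days overlapped. Its 1.05 ± 0.62 (SE, limma adjusted p = 0.182) did not pass, except without day 14 replicate 1 (1.56, adjusted p = 0.0347) and with trimmed mean or total signal scaling. The next, uid_2625 at row 8 of the same column, was at 528, 118 and 107 at day 14, against 92.0, 126 and 124 at day 0, and its 0.73 ± 0.53 (SE, adjusted p = 0.289) rested on 1 library, since without day 14 replicate 1 it was -0.01. The guides uid_3737 and uid_1295, in column 8 of grids 31 and 11, were at 0.52 ± 0.31 and 0.39 ± 0.31, and uid_4564 of grid 38 at 0.40 ± 0.38. In all, 15 guides of the block had a fold change above 0, and all 15 were in grids 2, 11, 18, 22, 31 and 38.

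The 3 day 14 libraries spread more over single guides than the day 0 libraries did. Their log2 fold changes against the day 0 mean correlated between 0.74 and 0.76 across the 975 guides. The median SD of log2 signal over 3 libraries was 0.72 at day 14 and 0.27 at day 0.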

How the data were processed

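The authors deposited the A375 table as normalised signal, with a scaling that is not given in the sources used here; cutadapt 1.13, Bowtie 1.1.2 and GRCh38 appear among the tools and builds of the submitters' processing notes. No sequence or gene name was available, so guides go by number. After 1 was taken off, all values were whole numbers of steps to within 0.01. Log2 signal was fitted as deposited, with no pseudocount or filter, by limma 3.58.1 in R 4.3.3, day 14 less day 0, with empirical Bayes variances following a trend and Benjamini-Hochberg adjustment over all 6211 guides, all places, all 39 grids or all inner rows and columns. The place fit rested wholly on the variance shared by places, so no p is printed for it. Replicates are separate infections per the labels. Same-numbered libraries deviated with r of 0.00, 0.03 and 0.01, against at most 0.02 for different numbers. Correlations over guides this variable cannot show whether the numbers pair the libraries. The main fit had no replicate block. Only the fit of single guides and the within-grid comparison of the block with places late on a single axis were checked on simulated data. The tests of places, block means, flattening, partner places and neighbouring rows and columns were not. How the tests behave for guides at the lowest level was not tested.

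Guides named are the 5 lowest called and 5 highest, corners and centre in the grids with the lowest, median and highest block mean, and the centres of the best and worst matching partner grids; the row and column breaks are additions. Members and lists were chosen with earlier results of these data known. The tests of partner places and of rows and columns against neighbours were added after seeing the values. Alternatives were other scalings, pseudocounts, a filter, a replicate block, other variance priors, a minimum change, voom, another border, and each library left out.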

Additional observations from a re-analysis of the deposited data

How the results depend on the processing

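The calls of falling guides, grids and flattening were little moved by the alternatives, while the median and the count of rising guides followed the scaling. Of 208 recomputed summary values, 188 stayed within 1.5 times the reported count or within 1 SD between libraries. Each scaling shifts all guides of a library by the same amount. It therefore cannot move the within-grid comparison, the flattening, the partner correlations and differences, or the rows and columns against neighbours. Those fixed values are counted among the 188. Scaling by a trimmed mean over all guides raised every log2 fold change by 1.41, total signal by 0.77 and the upper quartile by 0.41. They gave a block median of -3.58, -4.23 and -4.59 and 42, 10 and 2 rising guides of the block. Over all guides 2149, 2605 and 2855 fell and 2412, 1137 and 413 rose. Scaling on the 1372 guides numbered last raised every log2 fold change by 0.02, with 3166 falling and 118 rising over all guides. Under the trimmed mean uid_4554 was at 1.14 and uid_4598 at 0.21, the opposite of their reported signs, and uid_4594 no longer passed. Pseudocounts of 1 and 10 moved the block median to -4.71 and -3.48. A border at row and column 8 gave a median of -5.25 and 16 of 16 places lower. Counting up to 5 steps in place of the lowest level gave 495 guides per library instead of 267. With a minimum change of 1, 24 rows and columns lay below their neighbours.

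With each library left out, falling guides numbered 891 to 913, rising guides 0 to 1, the median -5.03 to -4.89, places 25 to 25, block grids 39 to 39, grids flatter over rows 17 to 24 and over columns 24 to 27, the correlation of partners 0.28 to 0.36, rows and columns above their neighbours 21 to 45 and below 20 to 53, and differing partner places 0 to 0. The lowest count below, 20, came without day 0 replicate 2, and 22 and 23 came without day 0 replicates 1 and 3. A replicate block moved no count by over 1.5 times, with 913 falling guides, 33 rows and columns above and 36 below their neighbours. Limma voom on steps gave 3143 falling and 95 rising guides in the table. A count model needs counts, so edgeR was not run. Guides at the lowest level in all 3 day 14 libraries have no order among themselves at day 14.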
